A study of Mus musculus with 16 samples.

Results

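The PI3K and mTOR pathway and the translation initiation machinery that it controls were followed through 32 genes, chosen by name as the pathway reported to be overactive in fragile X syndrome. Each gene is the sum of the deposited estimated counts of all transcripts that carry its symbol, and the 32 genes are among 46403 symbols in the files. All 32 matched a symbol with 1 gene identifier, and together they have 235 of 111706 transcripts. Of the 32, 31 had enough reads to be tested between genotypes. Eif4ebp1, which encodes a repressor of the cap-binding protein eIF4E, did not, with 0 to 9 estimated counts per library.

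RNA from hippocampal CA1 was sequenced in 16 mice. The Fmr1-KO group (n = 8) lacks a working Fmr1 gene, and the WT group (n = 8) is given as C57BL/6. Every mouse of either genotype was a yoked control in an active place avoidance task, so none served as the trained group, and no drug or other manipulation is named. Age, sex and whether the genotypes were littermates were not given in the sources used here.

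PI3K is a lipid kinase that relays signals from receptors at the cell surface to the kinase AKT, which lifts the brake that the TSC proteins place on the small GTPase Rheb and so lets Rheb switch on mTOR complex 1. That complex phosphorylates the S6 kinases and the eIF4E-binding proteins, and so frees eIF4E to join eIF4G and eIF4A in the eIF4F complex that recruits ribosomes to capped mRNAs. FMRP, the product of Fmr1, binds mRNAs in neurons and represses their translation, and the mRNAs for the PI3K catalytic subunit Pik3cb and for its activator Agap2 (also called PIKE) have been reported among its targets. The activity of this pathway is set largely by protein phosphorylation, which was not measured here: the values below are RNA levels.

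Libraries held 515103 to 3275003 estimated counts, and 2 WT libraries stood apart. WT replicates 3 and 6 held 878484 and 515103, against at least 1480966 in every other library, and protein-coding transcripts took 80.67% and 58.38% of their counts, against 87.59% to 91.8% elsewhere. The 32 genes together took 0.5851% to 0.709% of the counts in 15 libraries and 0.3557% in WT replicate 6. WT replicate 3 was the highest or lowest of all 16 libraries for 18 of the 31 tested genes, and WT replicate 6 for 9. Fmr1 itself averaged 58.1 ± 19.4 CPM in WT against 22.2 ± 7.08 CPM in Fmr1-KO (SD, n = 8 each). All 8 Fmr1-KO libraries lay below the lowest WT library, as the labels have it. CPM here is the estimated count scaled to a common library total after TMM scaling, a correction for differences in library composition. In tissue RNA of this kind, fewer cells of a type and less RNA per cell cannot be told apart.

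None of the 31 tested genes passed the threshold between genotypes, and most were measured closely enough to bound the difference. In the edgeR quasi-likelihood test, 0 of 31 had a Benjamini-Hochberg adjusted p under 0.05, and the smallest adjusted p was 0.617. Over all 11515 genes tested the same rule called 2 genes, or 0.0174%. An unadjusted p under 0.05 was found for 2 of the 31, Tsc2 and Rptor, or 6.45%, against 7.89% of all genes. Both were positive. Of all genes tested 909 were at that level, and 416 of these 909 were positive, which is 3.61% of all genes tested. The DESeq2 Wald test likewise called 0 of the 31, with the same 2 at an unadjusted p under 0.05. In 0 of the 31 did the Fmr1-KO and WT values separate without overlap, which occurred in 0.0434% of all genes. The log2 fold change of Fmr1-KO over WT was positive for 14 and negative for 17, with a median of −0.03 and a range from −0.45 to 0.25. Over all genes tested the median was −0.01 and 48.1% were positive. With libraries scaled by their totals instead of TMM, 17 members were positive and 14 negative, with a median of 0.02 for the members and for all genes alike.

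The 95% interval of the fold change lay within a 1.5-fold difference in either direction for 27 of the 31 genes. That share of 87.1% compared with 45.4% of all genes tested. It was 59.6% of the 8752 genes whose mean level was at or above that of the lowest of the 31, 12 CPM. The 31 genes had a median level of 80 CPM, against 30.1 CPM over all genes tested. Neither set of genes was matched to the 31 in level, and the part of level in these shares was not tested. The intervals of Akt2, Deptor, Ddit4 and Eif4ebp2 reached past 1.5-fold. The interval reached a median of 0.26 log2 units to either side of the estimate for the 31 genes and 0.45 for all genes. Without WT replicates 3 and 6, 15 genes were positive and 16 negative with a median of −0.01, and 27 intervals again lay within 1.5-fold, against 50.7% of all genes. In that comparison 0 of the 31 passed in edgeR after Benjamini-Hochberg adjustment, against 0.0169% of all genes, and Eif4e was the 1 member at an unadjusted p under 0.05.

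**Figure D1:**
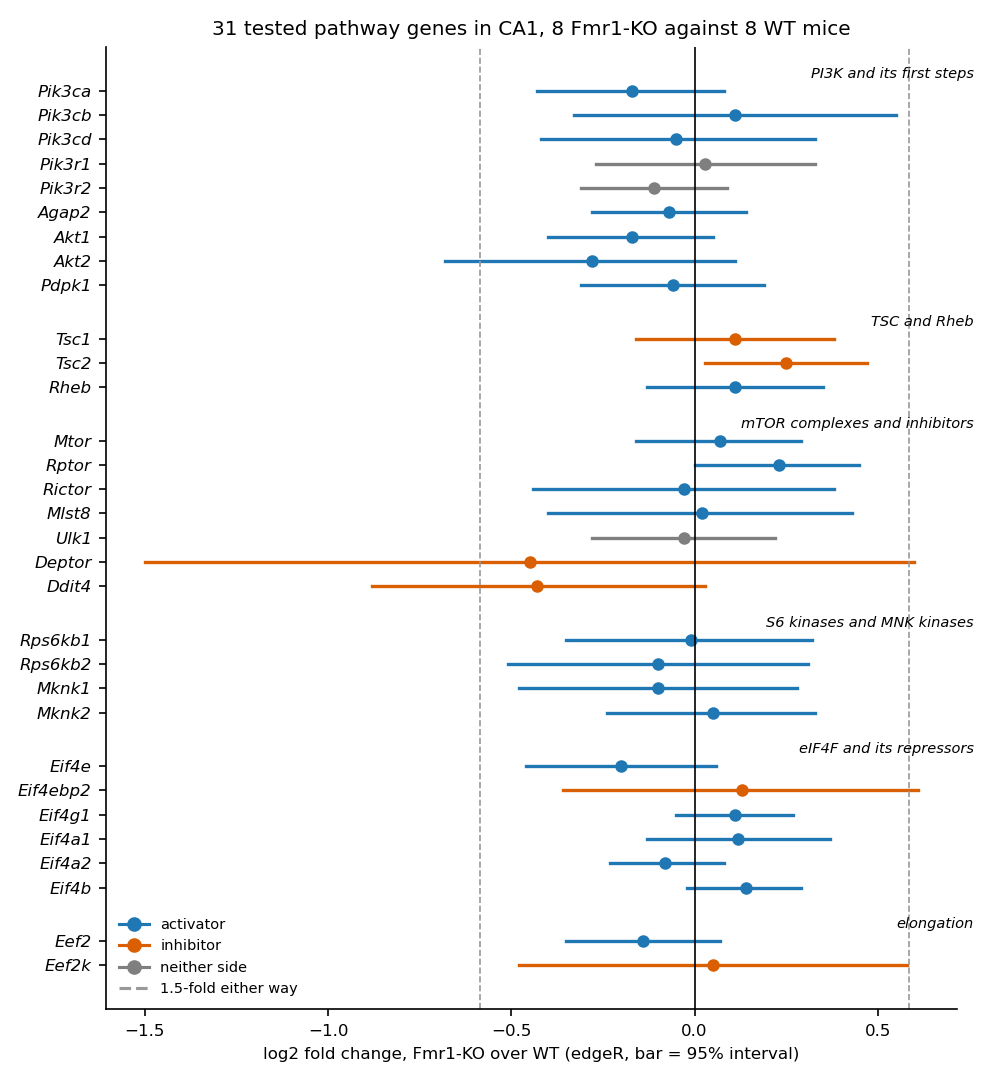
The log2 fold change of Fmr1-KO over WT (x axis) for the 31 tested genes, grouped by role, with the 95% interval from edgeR as a bar and dashed lines at a 1.5-fold difference either way. The points run from −0.45 for Deptor to 0.25 for Tsc2, and the bars of 27 genes stay between the dashed lines.

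Genes of PI3K and its first steps had small differences, 2 positive and 7 negative, with a median log2 fold change of −0.07. Agap2, a GTPase that binds and activates PI3K, was by far the most abundant of them. It ranged from 1595 to 3070 CPM in WT (median 2096) and from 1863 to 2300 CPM in Fmr1-KO (median 2040). The highest and the lowest value were both in WT, in replicates 3 and 6, and the Fmr1-KO libraries lay between them. Agap2 lies on chromosome 10 at 127075284 to 127093169 (GRCm38), and its log2 fold change was −0.07 with an interval from −0.28 to 0.14. Without WT replicates 3 and 6 the interval was −0.16 to 0.11, among the narrowest of the pathway.

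Pik3cb encodes a catalytic subunit, and its mRNA was introduced above with that of Agap2 as a reported FMRP target. It ranged from 9.61 to 40.4 CPM in WT (median 29.1) and from 22.8 to 47.2 CPM in Fmr1-KO (median 30.9), so the groups overlapped widely. Its log2 fold change was 0.11 (interval −0.33 to 0.55), or −0.01 (interval −0.38 to 0.35) without WT replicates 3 and 6. The gene lies on chromosome 9 at 99036654 to 99140621. The other catalytic subunits had log2 fold changes of −0.17 (Pik3ca, interval −0.43 to 0.08) and −0.05 (Pik3cd, interval −0.42 to 0.33). The regulatory subunits, which hold the catalytic subunits inactive and dock them at receptors, had 0.03 (Pik3r1) and −0.11 (Pik3r2).

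Akt1, the kinase through which PI3K signals, had the smallest p of this group. It ranged from 130 to 196 CPM in WT (median 151) and from 95.9 to 152 CPM in Fmr1-KO (median 150). No Fmr1-KO library exceeded 152 CPM while 4 of the 8 WT libraries did, and 2 Fmr1-KO libraries lay below the lowest WT library. The log2 fold change was −0.17 (SE 0.11) and did not pass (edgeR, Benjamini-Hochberg adjusted p = 0.705). Akt2, its paralogue, had −0.28, but WT replicate 3 held 179 CPM against a WT median of 72.2, and without WT replicates 3 and 6 the log2 fold change of Akt2 was 0.01. Pdpk1, the kinase that phosphorylates AKT, had −0.06.

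The TSC complex and Rheb, the brake and the switch of mTOR complex 1, had 3 positive values of 3, with a median of 0.11. Tsc2, which encodes the subunit that inactivates Rheb, had the smallest p of the 31 genes. It stood from 133 to 232 CPM in WT, with a median of 198, and from 197 to 261 CPM in Fmr1-KO, with a median of 232. The 4 highest of the 16 libraries were Fmr1-KO, the 2 lowest were WT replicates 3 and 6 at 133 and 141 CPM, and the remaining libraries overlapped. The means were 189 ± 35.3 CPM in WT against 227 ± 22.7 CPM in Fmr1-KO (SD, n = 8 each). That is 1.19-fold, a log2 fold change of 0.25 (SE 0.11, interval 0.03 to 0.47), with an unadjusted p of 0.0292 and an adjusted p of 0.617 in edgeR with Benjamini-Hochberg adjustment. Without WT replicates 3 and 6 it was 0.14 (interval −0.04 to 0.32, adjusted p = 0.737 in edgeR).

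A neighbouring gene limits what the Tsc2 value can say. Tsc2 lies on chromosome 17 at 24595816 to 24632630, on the minus strand, and shares 693 exon bases with Pkd1, the polycystin gene on the opposite strand. Whether the libraries kept the strand is not given in the sources used here, so reads from the shared bases cannot be assigned by strand with certainty. Pkd1 was itself well expressed, at 327 ± 62.7 CPM in WT against 390 ± 48.5 CPM in Fmr1-KO (SD, n = 8 each). The Pkd1 log2 fold change was 0.25 (SE 0.11), the same as that of Tsc2, and did not pass (adjusted p = 0.622 in edgeR with Benjamini-Hochberg adjustment). The part of the shared bases in the Tsc2 value was not tested.

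Tsc1, the partner that stabilises Tsc2, had a log2 fold change of 0.11 (interval −0.16 to 0.38). Its level per transcript length was below that of Tsc2 in all 16 libraries, at a median ratio of 0.490 in WT and 0.485 in Fmr1-KO (TPM). Rheb, the activator that the TSC proteins oppose, also had 0.11 (interval −0.13 to 0.35), from 52.8 to 90.2 CPM in WT (median 78.0) and 70.3 to 96.4 CPM in Fmr1-KO (median 83.1). Neither Tsc1 nor Rheb passed, and for both the groups overlapped.

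The mTOR complexes and their direct inhibitors held the other gene at an unadjusted p under 0.05, Rptor, and the most negative values, those of Deptor and Ddit4. Rptor encodes Raptor, the subunit that presents substrates to mTOR complex 1. It ranged from 66.2 to 124 CPM in WT (median 103) and from 101 to 146 CPM in Fmr1-KO (median 116). In 7 of 8 Fmr1-KO libraries it exceeded the WT median, 2 exceeded every WT library, and the lowest value was WT replicate 6. Its log2 fold change of 0.23 (SE 0.11) had an unadjusted p of 0.0456 and an adjusted p of 0.628 in edgeR with Benjamini-Hochberg adjustment. It was 0.19 (interval −0.02 to 0.40) without WT replicates 3 and 6. Rptor lies on chromosome 11 at 119602905 to 119899576.

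Mtor, the kinase itself, ranged from 142 to 233 CPM in WT (median 168) and from 157 to 215 CPM in Fmr1-KO (median 190). All Fmr1-KO values lay inside the WT range, and the log2 fold change was 0.07 (interval −0.16 to 0.29). Rictor, which defines mTOR complex 2, had −0.03, and 0.17 without WT replicates 3 and 6. WT replicate 3 held 176 CPM of Rictor against at most 108 CPM in any Fmr1-KO library. Mlst8, a subunit of both complexes, had 0.02. Ulk1, the autophagy kinase that mTOR complex 1 restrains, ranged from 76.2 to 117 CPM in WT and from 74.6 to 121 CPM in Fmr1-KO, with a log2 fold change of −0.03.

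Ddit4 encodes REDD1, a stress-induced protein that inhibits mTOR complex 1 through the TSC proteins. It ranged from 26.5 to 51.6 CPM in WT (median 33.9) and from 17.2 to 46.6 CPM in Fmr1-KO (median 19.9). In 5 of the 8 Fmr1-KO libraries it lay below the lowest WT library, while Fmr1-KO replicates 2, 5 and 6 lay inside the WT range. The log2 fold change was −0.43 (SE 0.22, interval −0.88 to 0.03) and did not pass (adjusted p = 0.653 in edgeR with Benjamini-Hochberg adjustment). It was −0.31 without WT replicates 3 and 6. Deptor, an inhibitor bound to both mTOR complexes, was the scarcest tested gene, and WT replicate 6 held 69.2 CPM against 4.01 to 12 CPM in the other WT libraries and 3.59 to 13.5 CPM in Fmr1-KO. Its log2 fold change of −0.45 became 0.28 without WT replicates 3 and 6.

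**Figure D2:**
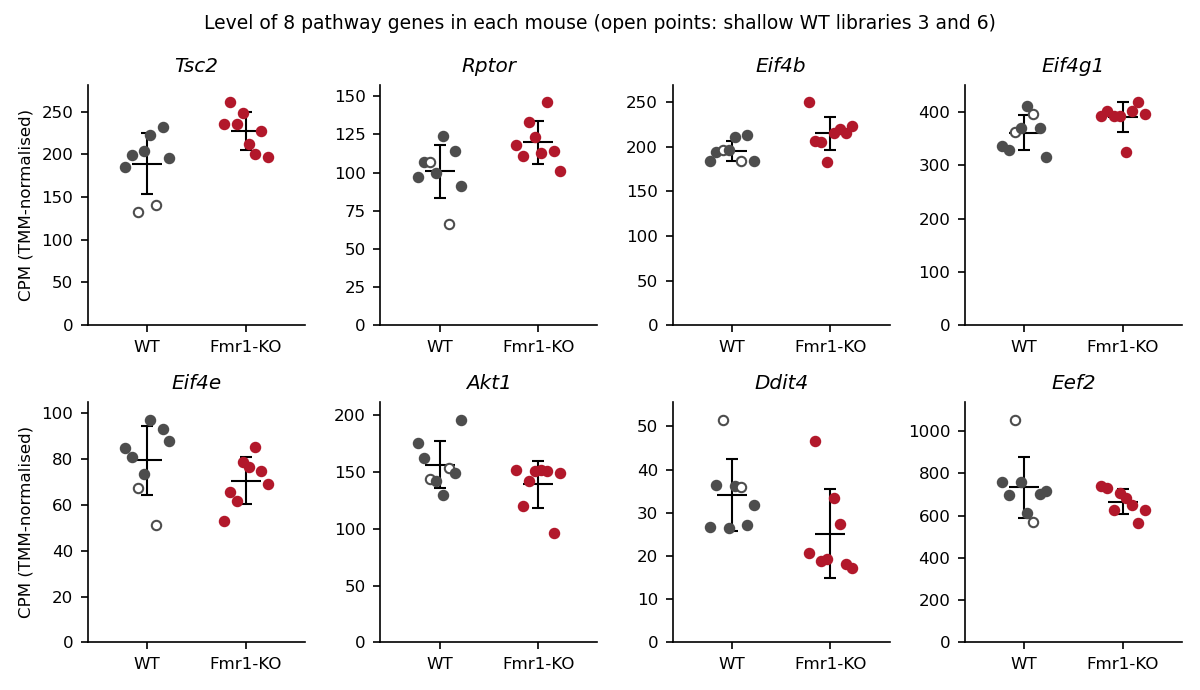
TMM-scaled CPM (y axis, linear from 0) of 8 genes in each WT and Fmr1-KO mouse, with the mean and SD of each group as lines and WT replicates 3 and 6 as open points. The groups overlap for every gene shown, 4 Fmr1-KO mice lie above all WT mice for Tsc2, and 5 lie below all WT mice for Ddit4.

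The kinases downstream of mTOR and ERK had log2 fold changes from −0.10 to 0.05, with a median of −0.06 over the 4 genes. Rps6kb1, which encodes the main S6 kinase, ranged from 43.4 to 93.3 CPM in WT (median 54.0) and from 34.4 to 72.8 CPM in Fmr1-KO (median 55.5). The group medians were close, the highest value was WT replicate 6, and the log2 fold change was −0.01 (interval −0.35 to 0.32). Rps6kb2, the other S6 kinase gene, ranged from 14.4 to 39.3 CPM in WT (median 26.3) and from 19.9 to 31.1 CPM in Fmr1-KO (median 24.5), with a log2 fold change of −0.10. Both S6 kinase genes share exon bases with an expressed gene on the opposite strand, 155 bases with Rnft1 for Rps6kb1 and 45 with Coro1b for Rps6kb2. Mknk1 and Mknk2 encode the MNK kinases, which phosphorylate eIF4E. Mknk1 ranged from 19.1 to 44.4 CPM in WT (median 31.9) and from 20.8 to 35.3 CPM in Fmr1-KO (median 27.6), with a log2 fold change of −0.10 (adjusted p = 0.920 in edgeR with Benjamini-Hochberg adjustment), and Mknk2 had 0.05.

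The eIF4F complex and its repressors had 4 positive and 2 negative values among 6 tested genes, with a median of 0.12. Eif4b, which encodes a cofactor that stimulates the helicase eIF4A, had the smallest p of this group. It ranged from 184 to 213 CPM in WT (median 195) and from 183 to 250 CPM in Fmr1-KO (median 216). In 5 Fmr1-KO libraries it exceeded every WT library, while Fmr1-KO replicate 4 had the lowest value of all 16. The log2 fold change was 0.14 (SE 0.08, interval −0.02 to 0.29) and did not pass (adjusted p = 0.670 in edgeR with Benjamini-Hochberg adjustment). It was 0.13 without WT replicates 3 and 6.

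Eif4g1, the scaffold of the complex, ranged from 315 to 411 CPM in WT (median 366) and from 324 to 418 CPM in Fmr1-KO (median 395). In 7 of 8 Fmr1-KO libraries it exceeded the WT median, and the log2 fold change was 0.11 (interval −0.05 to 0.27). Eif4e, the cap-binding protein gene, ranged from 51.1 to 97.2 CPM in WT (median 82.9) and from 53.0 to 85.1 CPM in Fmr1-KO (median 72.0). Only Fmr1-KO replicate 6 exceeded the WT median of Eif4e, and the lowest WT values were those of replicates 6 and 3. For Eif4e the log2 fold change was −0.20 (interval −0.46 to 0.06). Without WT replicates 3 and 6 it was −0.28 (interval −0.52 to −0.05), with an unadjusted p of 0.0213 and an adjusted p of 0.644 in edgeR with Benjamini-Hochberg adjustment. Without those libraries 7.32% of all genes had an unadjusted p under 0.05.

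The eIF4A helicase genes differed in level and not detectably between genotypes. Eif4a2, the form most abundant here, ranged from 363 to 466 CPM in WT (median 441) and from 368 to 459 CPM in Fmr1-KO (median 405), with a log2 fold change of −0.08 (interval −0.23 to 0.08). Eif4a1 had 0.12 (interval −0.13 to 0.37), and −0.01 without WT replicates 3 and 6. Of the repressors of eIF4E, Eif4ebp2 was the form found in this tissue, at 23.3 ± 10.5 CPM in WT against 25.5 ± 4.88 CPM in Fmr1-KO (SD, n = 8 each). The log2 fold change of 0.13 had a wide interval from −0.36 to 0.61. Eif4ebp1 had a median of 0.145 CPM in WT and 0 in Fmr1-KO, with at most 3.07 CPM in any library, and a difference was not detectable at this depth.

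The translation of many mRNAs for the translation machinery is controlled by mTOR complex 1 through a run of pyrimidines near the start of the mRNA. The following stretches are the first 30 bases after the RefSeq transcription start on GRCm38.p6 in the sense direction, shown because they hold such a run in members that carry out initiation or elongation. Capitals mark an unbroken run of at least 6 C or T that begins with C.
Eif4g1: gCCCTCTgcgccggtcacgtggggcgctgg
Eif4b: cgccgcgccaCCCCCTCgcgctgctttacg
Eef2: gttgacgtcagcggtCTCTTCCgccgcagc
These stretches lie at chr16:20672727-20672756 (plus strand) for Eif4g1, chr15:102073773-102073802 (plus) for Eif4b and chr10:81176631-81176660 (plus) for Eef2. The run began at base 2, 11 and 16, respectively, counted from 1 at the start. Of the 32 genes 29 had an entry in the RefSeq table, and 10 of these, or 34.5%, held a run on the sense strand within the first 30 bases. So did 6657 of 32851 promoter entries in that table, or 20.3%. The other 7 were Pik3ca, Pik3cd, Akt2, Mlst8, Mknk1, Mknk2 and Ddit4. Not all initiation genes held a run: Eif4e, Eif4a1 and Eif4a2 held none. Tsc2 and Rptor held none either. A match is a description of the letters at the annotated start and no evidence of a site in use.

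Elongation, which mTOR signalling also reaches, was represented by Eef2 and its inhibitory kinase Eef2k. Eef2, the factor that moves the ribosome along the mRNA, ranged from 572 to 1055 CPM in WT (median 710) and from 566 to 741 CPM in Fmr1-KO (median 667). The highest value was WT replicate 3 at 1055 CPM and the groups otherwise overlapped. Its log2 fold change was −0.14 (interval −0.35 to 0.07, adjusted p = 0.747 in edgeR with Benjamini-Hochberg adjustment), or −0.09 without WT replicates 3 and 6. Eef2k ranged from 6.00 to 44.8 CPM in WT and from 18.9 to 42.1 CPM in Fmr1-KO, with a log2 fold change of 0.05 (interval −0.48 to 0.58), or −0.11 without them.

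Activators and inhibitors overlapped in their differences between genotypes, and their medians lay −0.12 apart (activators minus inhibitors). Of the 22 activators 9 were positive and 13 negative, with a median log2 fold change of −0.04, and 21 had an interval within 1.5-fold. Of the 6 tested inhibitors, Tsc1, Tsc2, Eif4ebp2 and Eef2k were positive and Deptor and Ddit4 negative, with a median of 0.08, and 3 had an interval within 1.5-fold. Pik3r1, Pik3r2 and Ulk1, which act on either side, were counted with neither. In each library the mean log2(CPM + 1) of the inhibitors was subtracted from that of the activators. This balance was 1.5 ± 0.23 in WT (range 1.12 to 1.82) and 1.48 ± 0.22 in Fmr1-KO (range 1.23 to 1.86; SD, n = 8 each), so the groups overlapped almost fully. The lowest balance was WT replicate 6, and without WT replicates 3 and 6 WT stood at 1.56 ± 0.21 (SD, n = 6).

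**Figure D3:**
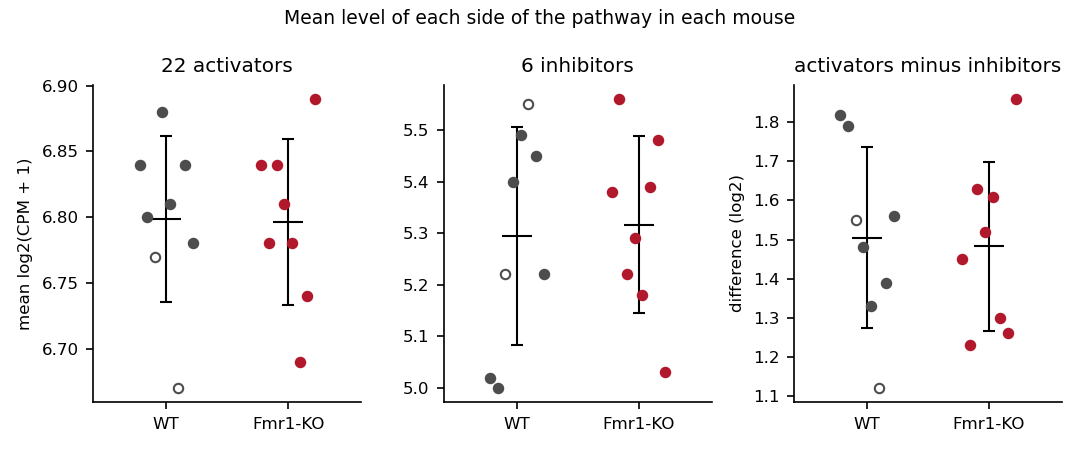
Mean log2(CPM + 1) of the 22 activators and of the 6 tested inhibitors, and their difference (y axes, which do not start at 0), in each mouse, with the mean and SD of each group and WT replicates 3 and 6 as open points. The difference runs from 1.12 to 1.82 in WT and from 1.23 to 1.86 in Fmr1-KO.

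Levels of different genes were compared in TPM, which is scaled to transcript length within each library. The median TPM over tested genes was 3.11 in WT replicate 6, 10.6 in WT replicate 3 and 13.8 in WT replicate 5, against 21.5 to 28.5 in the other 13 libraries, so TPM was used to order genes and not to compare genotypes. Agap2 led, with a median of 643 TPM over the 16 libraries, which ranked 112 among all 46403 symbols. It was followed by Eif4a2 at 494, Eef2 at 401, Eif4a1 at 318 and Eif4g1 at 169 TPM. Below these the genes of initiation and of signalling alternated, with Pik3r2 at 146, Akt1 at 104, Rheb and Eif4b at 96.3 each, Eif4e at 78.6 and Tsc2 at 64.8 TPM. Further down stood Mtor at 40.3, Rps6kb1 at 38.8, Rptor at 34.7, Tsc1 at 26.8 and Pik3cb at 9.02 TPM. Deptor at 2.02 TPM and Eif4ebp1, with a median of 0, closed the order.

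Neighbours in this order were mostly not separated. Of the 31 neighbouring pairs, 1 kept its order in all 16 libraries, Eif4a1 above Eif4g1. Agap2 exceeded Eif4a2 and Eif4a2 exceeded Eef2 in 15 of 16 libraries, whereas Eif4b exceeded Rheb in 8. Among paralogues, Eif4a1 exceeded Eif4a2 in 1 of 16 libraries, at a median ratio of 0.560 in WT and 0.635 in Fmr1-KO. Akt1 exceeded Akt2 in 15 libraries, Rptor exceeded Rictor in 15, and Pik3ca exceeded Pik3cb in all 16. In TPM the S6 kinase genes and the MNK kinase genes had no settled order, with Rps6kb1 above Rps6kb2 in 7 libraries and Mknk1 above Mknk2 in 10. In CPM, which is not scaled to length, Rps6kb1 exceeded Rps6kb2 in all 16 and Mknk1 exceeded Mknk2 in 1. The transcript with the most counts held 32.3% of the TPM of Rps6kb1, 33.4% for Rps6kb2 and 19.1% for Eif4e. The TPM of these genes therefore rests largely on their other transcripts. Eif4e exceeded Eif4ebp2, the repressor of its protein, in all 16.

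**Figure D4:**
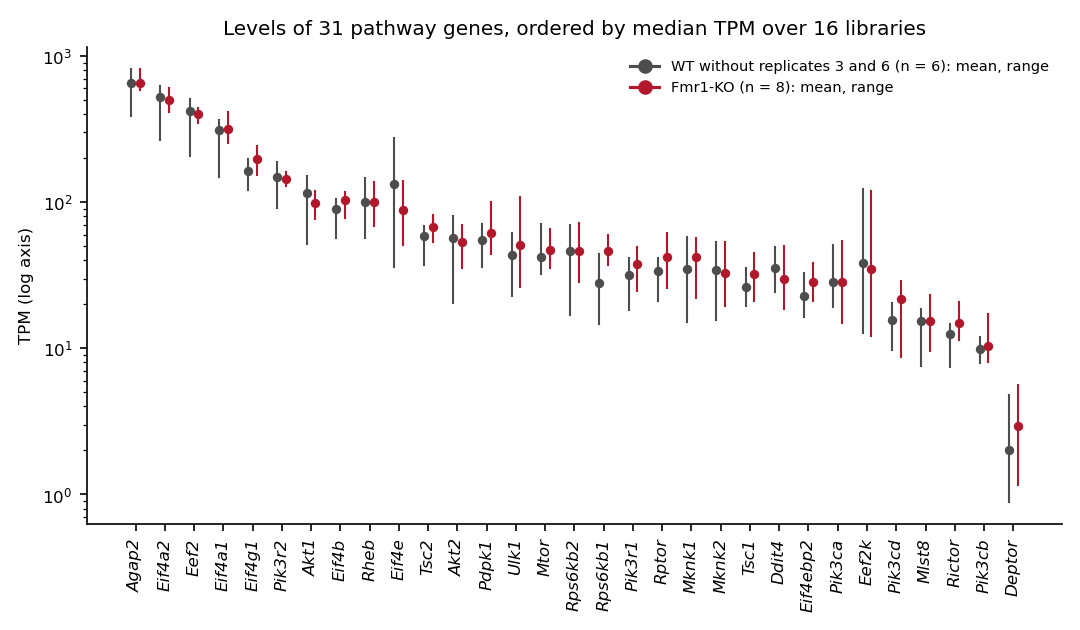
Mean TPM (points, log axis) and range (bars) of the 31 tested genes in Fmr1-KO (n = 8) and in WT without replicates 3 and 6 (n = 6), ordered by the median over all 16 libraries. Agap2 is at the left with a median of 643 TPM and Deptor at the right with 2.02 TPM. WT replicate 5, with a low median of 13.8 TPM over tested genes, is kept in the WT values. The figure orders genes and is no comparison of genotypes.

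Transcripts of the 32 genes gave no call either. Of their 235 transcripts 60 were tested, 0 passed, and 2 had an unadjusted p under 0.05 in edgeR, or 3.33%, against 3.91% of all 16772 transcripts tested. Over all transcripts 1 passed after Benjamini-Hochberg adjustment, or 0.00596%. One of the 2 was Tsc2-201, the single transcript of Tsc2 in the files, with a log2 fold change of 0.26. The other was Rheb-002, annotated as retaining an intron. It ranged from 6.03 to 26.8 CPM in WT (median 9.24) and from 10.2 to 32.5 CPM in Fmr1-KO (median 18.9). Its log2 fold change was 0.93 (SE 0.41, interval 0.06 to 1.79) with an adjusted p of 1 in edgeR with Benjamini-Hochberg adjustment, while the protein-coding Rheb-001 had −0.09. Shifts in transcript proportions could be tested for 17 of the 32 genes. None passed, 0 had an unadjusted p under 0.05 and the smallest adjusted p was 0.999 (edgeR diffSpliceDGE, Benjamini-Hochberg). Over all 3467 genes tested for proportions 3.32% had an unadjusted p under 0.05 and 0.0577% passed.

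Most of the genes were read from transcripts that encode protein, with 5 exceptions. In 14 of the 32 a single transcript held over 90% of the counts, among them Mtor and Akt1. Of the 14, Agap2, Tsc2, Rictor, Eif4b, Ddit4, Eef2 and Eif4ebp1 have only 1 transcript here, a protein-coding one. For these genes both that share and the protein-coding share could only be 100%. Protein-coding transcripts held under 80% of the counts of Pik3cb, Rps6kb2, Rheb, Eif4a1 and Mknk1. For Pik3cb they held 38.5%, because the leading transcript, Pik3cb-002 with 61.5%, is annotated as a target of nonsense-mediated decay. Pik3cb-002 averaged 20.3 ± 9.63 CPM in WT against 18.5 ± 10.6 CPM in Fmr1-KO, and the protein-coding Pik3cb-001 at 9.21 ± 8.14 and 14.3 ± 10.1 CPM (SD, n = 8 each). The log2 fold changes were −0.14 (interval −1.33 to 1.05) and 0.65 (interval −0.62 to 1.92), and neither passed. For Rps6kb2 the protein-coding share was 9.13%, with the decay-annotated Rps6kb2-003 in the lead at 58.6%. How reads are divided among such overlapping transcripts is a model estimate, and its part in the spread between mice was not tested.

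**Figure D5:**
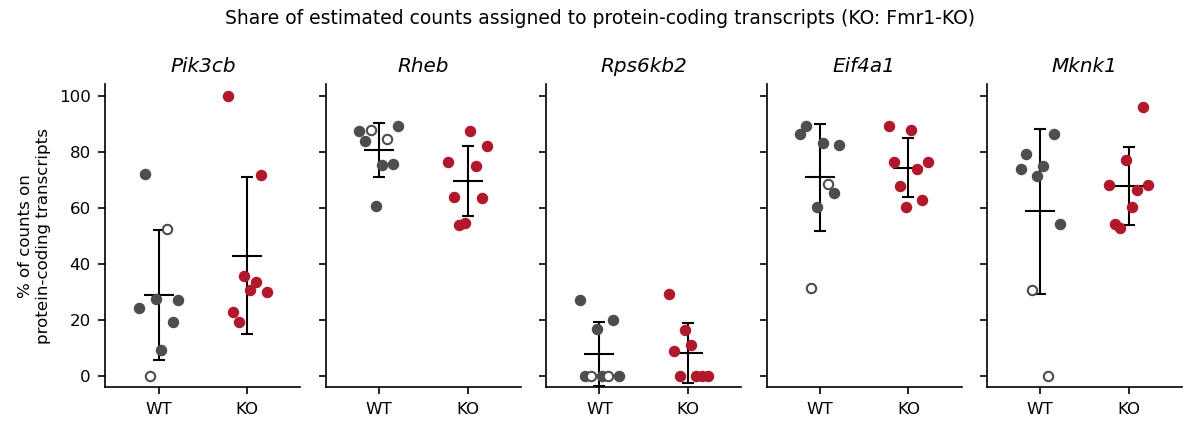
Share of each gene's estimated counts assigned to protein-coding transcripts (y axis, percent) in each WT and Fmr1-KO mouse for the 5 genes under 80%, with the mean and SD of each group and WT replicates 3 and 6 as open points. The groups overlap for every gene, and the shares of Pik3cb run from 0% to 72.1% in WT and from 19.2% to 100% in Fmr1-KO.

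Other genes of the pathway gave no call either. Of 138 further genes (receptors and adaptors, phosphatases, amino acid sensing, AMPK, and the other initiation and elongation factors), 133 were tested. Of these 72 were positive and 61 negative with a median of 0.03, 0 passed in edgeR after Benjamini-Hochberg adjustment, and 10 had an unadjusted p under 0.05, or 7.52%. Of the 8 with the smallest p, 7 are given here, and they were spread over the pathway. The receptor gene Fgfr1 had a log2 fold change of −0.39 (SE 0.12), the smallest p of the 133 and an adjusted p of 0.515 in edgeR with Benjamini-Hochberg adjustment. The adaptor gene Irs2 had 0.50, Sgk1, a kinase related to AKT and activated through mTOR complex 2, 0.46, and Atf4, the transcription factor of the integrated stress response, −0.35. The initiation factor genes Eif3b and Eif3i had 0.29 and −0.43, and Cyfip2, whose protein family links FMRP to eIF4E, 0.19.

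Markers of glia and vessels had more negative medians than the 31 genes. Markers of CA1 pyramidal neurons summed to 2191 to 2630 CPM in WT and 2353 to 2580 CPM in Fmr1-KO. Of tested markers, 0 of 8 for astrocytes, 0 of 8 for oligodendrocytes, 0 of 7 for microglia and 0 of 9 for endothelium and pericytes had a positive log2 fold change, with medians of −0.29, −0.40, −0.31 and −0.68. Over all genes tested 48.1% were positive. None of these markers passed in edgeR. An unadjusted p under 0.05 in edgeR was found for 3 of 8, 0 of 8, 0 of 7 and 2 of 9 of them, against 7.89% of all genes. Without WT replicates 3 and 6 the numbers were 0 of 8, 1 of 8, 0 of 7 and 1 of 9, against 7.32%. With all libraries, 2 of 7 CA1 pyramidal, 2 of 7 pan-neuronal and 2 of 5 oligodendrocyte precursor markers were at that level in edgeR. Dentate granule markers gave 1 of 3, CA3 and CA2 markers 1 of 3 and interneuron markers 0 of 9. Without WT replicates 3 and 6, CA1 and pan-neuronal markers stayed at 2 of 7 each. Precursor, dentate, CA3 and CA2, and interneuron markers then had 0. None of these passed. Astrocyte markers summed to 2329 to 6430 CPM in WT and 2046 to 3117 CPM in Fmr1-KO, and endothelial and pericyte markers to 96.1 to 418 and 80.2 to 155 CPM, with the highest value of each in WT replicate 3. Oligodendrocyte markers summed to 259 to 700 and 235 to 467 CPM, and microglial markers to 154 to 342 and 118 to 242 CPM. The medians were 0.09 for pan-neuronal markers, −0.10 for CA1 pyramidal neurons, −0.16 for dentate granule cells, −0.18 for CA3 and CA2 neurons, −0.28 for interneurons and −0.55 for oligodendrocyte precursors. Without WT replicates 3 and 6 the WT ranges were 2346 to 2985 CPM for astrocyte markers and 96.1 to 191 CPM for endothelial and pericyte markers. The differences of astrocyte, microglial, and endothelial and pericyte markers were then smaller. Of astrocyte markers 2 of 8 were positive with a median of −0.10. Of microglial markers it was 0 of 7 with −0.16, and of endothelial and pericyte markers 1 of 9 with −0.38. The median of oligodendrocyte markers was little changed, at −0.38 against −0.40, with 0 of 8 positive. For oligodendrocyte precursors the median was then −0.21, and for interneurons −0.19. Of the choroid plexus and ependyma markers, Folr1 and Tmem212 were at 0 in every library. The part of these other cells in the values of the 31 genes was not tested.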

How the data were processed

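Per the labels' protocols, CA1 RNA was extracted with the Maxwell 16 LEV kit and read on Illumina HiSeq. FastQC, cutadapt, kallisto and DESeq2 are named, per the submitters' processing notes. Their versions, the genome build, the transcript index and the strandedness of the libraries were not given in the sources used here. The deposited estimated counts are reads divided among transcripts by the authors' quantification, and the deposited TPM values are relative abundances per effective length, per the file headers.

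Estimated counts were summed by symbol and rounded. Genes were tested with edgeR 4.0.16 (quasi-likelihood, TMM, no covariate, minimum count 10 in filterByExpr; R 4.3.3) and Benjamini-Hochberg adjustment over all genes and a threshold of 0.05. The interval is 95%, from the standard error and the t distribution, where the standard error is the log2 fold change divided by the square root of F. Transcripts were tested likewise, and their proportions with diffSpliceDGE. Each library is 1 animal by its label, which holds a number and a letter. Some numbers are shared by libraries of the same genotype under different letters. What the number and the letter mark is not given in the sources used here. The main test treated all libraries as independent. Positions and exon overlaps are from GENCODE M21 (GRCm38). The fits were tested on simulated data. DESeq2 1.42.0 and limma 3.58.1 served alternatives.

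The members and lists were chosen with earlier results of these data known. Named in full were Fmr1, members at an unadjusted p under 0.05, the most abundant member and the one with the smallest p in each role, paralogue pairs, Agap2 and Pik3cb, and of the other pathway genes the 8 with the smallest p. Of these 8, 1 is not reported here. Depth was 515103 to 3275003 estimated counts per library.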

Additional observations from a re-analysis of the deposited data

Results flagged for a closer look

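Among 64 sets of 8 values (the 31 tested genes and the balance of activators and inhibitors, in each genotype), 9 held a library whose gap to its nearest neighbour exceeded Dixon's 95% critical value, where chance gives about 1 in 20. In 6 of them that library was WT replicate 3, which was high: Agap2 at 3070 CPM (next 2292), Eef2 at 1055 CPM (next 760), Pik3r2 at 352 CPM (next 255), Akt2 at 179 CPM (next 108), Rictor at 176 CPM (next 79.8) and Ddit4 at 51.6 CPM (next 36.5). In 2 it was WT replicate 6, also high, with Rps6kb1 at 93.3 CPM (next 62.4) and Deptor at 69.2 CPM (next 12). In 1 it was Fmr1-KO replicate 5, in which Eif4g1 was low at 324 CPM (next 392).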

How the results depend on the processing

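Members past the threshold numbered 0 in all 28 alternatives, with a smallest adjusted p of 0.293 (Tsc2, DESeq2). Genes past the threshold numbered 2, but 8 with DESeq2, 5 with no filter, 7 in limma-voom with quality weights, 1 with length-scaled TPM counts, 0 in limma on log2(TPM + 1) or log2(TPM + 0.1), and 3 when either the letter (a covariate) or the number (a random effect) in the animal labels was modelled, or without Fmr1-KO replicate 1. Members at an unadjusted p under 0.05 numbered 2 (7.89% of all genes in that fit), but 0 with library totals (6.66%), 1 with no filter (13.5%), 6 in limma-voom with quality weights (Akt1, Ddit4, Eif4e, Eif4g1, Rptor and Tsc2, against 12.6% of all genes), 1 and 1 in the fits of TPM (7.83% and 6.39%), 3 with length-scaled TPM counts (7.71%), 4 with the number of the animal label as a random effect (8.58%), and 1 without WT replicates 3 and 6 (7.32%). Leaving out 1 library at a time gave 0 to 3, with 0 without WT replicate 6. The median of the members was 0.56 and 0.63 in the fits of TPM, where the median of all genes was 0.55 and 0.62. Without WT replicates 3 and 6, 5 genes passed for transcript proportions, against 2. The cause of these shifts was not tested. The activators minus inhibitors difference of median log2 fold change, −0.12, stayed negative in all 28 alternatives. It ran from −0.22 in limma-voom with quality weights to −0.04 with length-scaled TPM counts and without Fmr1-KO replicate 7. The alternatives are fits of the same libraries, the inhibitor median rests on 6 genes, and the difference was not tested. Relative to the median of all genes, 14 of 31 members kept their sign in all 28. No paired analysis was possible because the numbers in the animal labels are not shared between genotypes. Depth left Eif4ebp1 untested, and the interval of Deptor reached 0.354-fold.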

Other observations

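Some transcripts of the 32 genes were held by different numbers of libraries in the 2 genotypes, at a rate close to that of all transcripts, and the comparison was chosen after the values were seen. Of 82 transcripts that could differ by at least 4 libraries in how many exceeded 1 CPM, 5 did, or 6.10%, against 6.88% of 24843 over all genes. No test of these counts was made. More Fmr1-KO than WT libraries held Eif4g1-009 (6 against 1), Tsc1-008 (7 against 3) and Eif4a2-006, and more WT libraries held Ulk1-002 (6 against 1) and Eif4ebp2-202. Eif4a2-006, annotated as a target of nonsense-mediated decay, exceeded 1 CPM in 2 of 8 WT libraries (at most 2.37 CPM) and in 6 of 8 Fmr1-KO libraries (at most 86.5 CPM). It missed the filter of the transcript test. With a filter of 1 CPM in 8 libraries it had an unadjusted p of 0.000878 and an adjusted p of 1 in edgeR with Benjamini-Hochberg adjustment. Eif4a2 has 24 transcripts in the files, and the gene as a whole had a log2 fold change of −0.08. Eif4ebp2-202, a protein-coding form, exceeded 1 CPM in 4 WT libraries (at most 41.4 CPM, in WT replicate 3) and in 0 Fmr1-KO libraries. Without WT replicates 3 and 6 it did so in 2 WT libraries. The leading form Eif4ebp2-201 averaged 16.6 ± 11.8 CPM in WT against 26.9 ± 5.15 CPM in Fmr1-KO (SD, n = 8 each). Its log2 fold change of 0.64 (SE 0.55) did not pass (adjusted p = 1 in edgeR with Benjamini-Hochberg adjustment).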
